A study of Homo sapiens with 8 samples.

Results

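The IGF2 axis and the IGF binding proteins were followed through 10 genes of Hep3B cells, a human hepatocellular carcinoma line. They comprise the ligand gene IGF2, the receptor genes IGF1R, IGF2R and INSR, the binding protein genes IGFBP1, IGFBP2, IGFBP3 and IGFBP4, and the RNA-binding protein genes IGF2BP1 and IGF2BP3. The members were taken by gene symbol, and all 10 were found among the 16169 genes of the 2 deposited tables. There were 8 RNA-seq libraries from 4 conditions, 2 of each. The first table holds wild-type Hep3B cells and Hep3B cells labelled SOX4-/-, a CRISPR/Cas9 knockout of the transcription factor SOX4 of which the study describes a pair of lines kept under puromycin. The second holds Hep3B cells given scramble siRNA, labelled control si, and Hep3B cells given siRNA against STAT6, a transcription factor of the IL-4 response, labelled STAT6 si. All conditions share the Hep3B background and a serum-containing medium. The study names puromycin for the SOX4-/- lines alone, so its effect cannot be told apart from that of the knockout. The study's methods list both knockout lines, #1 and #2, for the sequenced comparison, so the SOX4-/- libraries may be 1 of each line, while the labels number the libraries without naming a line. Whether the Hep3B and the siRNA libraries came from separate cultures, and the dose and duration of the siRNA, are not stated in the labels, so p-values measure the spread between these libraries, part of which may be technical.

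IGF2 is a fetal growth factor whose gene is imprinted, with expression from the paternal allele, and it is abundant in fetal liver and in many liver tumours. The peptide signals through the tyrosine kinase receptors encoded by IGF1R and INSR, while the receptor encoded by IGF2R carries it to lysosomes. IGF binding proteins hold IGFs outside the cell and can limit or prolong their action, and IGF2BP1 and IGF2BP3 are oncofetal proteins that bind mRNAs, IGF2 mRNA among them. The comparisons ask which of these genes differ in expression when SOX4 or STAT6, the factors of the study, is removed.

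Library totals ranged from 16266282 to 25353113 expected counts. SOX4 transcript stood at 799 and 266 CPM (read counts scaled to a common library size) in Hep3B against 298 and 302 CPM in the SOX4-/- libraries, so its level does not mark the knockout label, and every direction below rests on that label. For its SOX4-/- cells the study shows western blots of SOX4 and STAT6 protein and reports reduced STAT6 protein and mRNA. It also reports diminished SOX4 binding at the MTHFD2 promoter by ChIP-qPCR. SOX4 transcript level measures neither SOX4 protein nor its binding. STAT6 had 42.5 and 31.4 CPM with scramble siRNA against 9.92 and 5.98 with STAT6 siRNA. It had 32.0 and 13.2 CPM in Hep3B against 2.76 and 2.20 in the SOX4-/- libraries. The latter is a log2 fold change of -3.18 (standard error 0.57, edgeR adjusted p = 0.0275). Of 8 hepatocyte lineage markers, all were detected, with a summed level from 10977 to 12687 CPM in Hep3B and from 26625 to 44831 CPM in the SOX4-/- libraries. Both SOX4-/- libraries lay above both Hep3B libraries for 7 of the 8, against 30.6% of all genes tested. AFP was the exception, with 149 and 30.6 CPM in Hep3B against 75.2 and 30.9 CPM in the SOX4-/- libraries. Of the 4 immune markers CD3E was not listed and PTPRC stayed at or below 0.227 CPM in the knockout table, and the summed level was 89.5 and 34.3 CPM in Hep3B against 186 and 436 CPM in the SOX4-/- libraries, carried by LYZ and CD68. Of the 4 stromal markers COL1A2 and DCN were not listed in the knockout table, and the other two summed to 3.80 and 6.70 CPM in Hep3B against 15.7 and 23.3 CPM in the SOX4-/- libraries. Of the 3 endothelial markers CDH5 and VWF were not listed, and PECAM1 stayed at or below 0.770 CPM. In the siRNA table DCN was not listed, and the other 3 stromal markers summed to 8.42 and 6.18 CPM with scramble siRNA against 16.8 and 9.04 CPM with STAT6 siRNA, with COL1A1 and PDGFRB higher in both treated libraries. The summed hepatocyte markers there had 12398 and 14528 CPM against 13626 and 18276 CPM, which overlapped, as did the immune markers. The part of these markers in the results on the members was not tested.

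Sequence is shown for the features that the member results turn on. INSR transcripts differ in an alternative exon of 36 bases, exon 11 of NM_000208, at chr19:7150497-7150532 of GRCh38 on the minus strand. The exon encodes 12 residues, and its absence gives the receptor form known for binding IGF2 with high affinity. It is printed in capitals with 12 bases of the neighbouring exons on each side.
INSR alternative exon: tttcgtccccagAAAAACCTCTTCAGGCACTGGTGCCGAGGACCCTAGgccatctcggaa
For IGFBP3 and IGFBP4, the members with the smallest p-values in the SOX4-/- comparison, the 250 bases before the RefSeq transcript start of GRCh38.p14 are shown in the direction of transcription. The IGFBP3 window is chr7:45921273-45921522 on the minus strand and the IGFBP4 window is chr17:40443200-40443449 on the plus strand.
IGFBP3 upstream window: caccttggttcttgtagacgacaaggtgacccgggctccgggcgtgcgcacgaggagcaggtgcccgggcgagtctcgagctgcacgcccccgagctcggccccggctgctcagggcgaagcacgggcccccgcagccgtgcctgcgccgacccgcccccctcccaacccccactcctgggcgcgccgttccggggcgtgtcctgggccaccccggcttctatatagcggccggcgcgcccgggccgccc
IGFBP4 upstream window: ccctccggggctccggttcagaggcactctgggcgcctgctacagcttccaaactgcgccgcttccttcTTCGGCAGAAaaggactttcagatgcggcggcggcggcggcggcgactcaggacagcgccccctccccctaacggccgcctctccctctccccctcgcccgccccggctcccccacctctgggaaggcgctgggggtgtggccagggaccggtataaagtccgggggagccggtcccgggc
Capitals mark a match to either of the words searched on both strands. The first was a SOX word, NNCAANG with A or T at each N, which gives 8 spellings, and the second was the spaced palindrome TTCNNNNGAA bound by STAT6. Windows were found for 7 members, 9 windows in all. IGF2, IGFBP1 and IGF2BP1 had no window, so their upstream sequence was not searched. A SOX word was in 0 of the 9, and 17.9% of all 35116 windows held one. TTCNNNNGAA was in 1, that of IGFBP4, 181 to 172 bases before the start, and 5.38% of all windows held it. A match is a description of letters and was not tested as a binding site.

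Among the members, all 10 were tested in the SOX4-/- comparison and 0 were called, that is, had a Benjamini-Hochberg adjusted p-value under 0.05 in the quasi-likelihood test of edgeR fitted across the whole table, against 5.89% of the 14415 genes tested. Before adjustment 2 members, IGFBP3 and IGFBP4, were under 0.05, against 26.0% of all genes. The DESeq2 Wald test called 2 members, again IGFBP3 and IGFBP4, against 15% of all genes. The SOX4-/- libraries both lay above both Hep3B libraries for 7 members, IGF2, IGF1R, IGFBP1, IGFBP2, IGFBP3, IGFBP4 and IGF2BP3, against 30.6% of all genes tested. IGFBP2 met the count filter through its SOX4-/- libraries alone, so its direction there is no separate result. The SOX4-/- libraries both lay below for 1 member, IGF2BP1, against 27.4% of all genes. As the RNA comes from whole cultures, fewer cells with a transcript and less transcript per cell cannot be told apart. The median log2 fold change was 0.87 over the members and 0.01 over all genes tested. The count of members called depended on the Hep3B libraries, since it was 2, IGFBP1 and IGFBP3, without Hep3B library 1, where 15.3% of all genes passed, and 1, IGFBP4, without Hep3B library 2, where 8.89% passed.

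**Figure D1:**
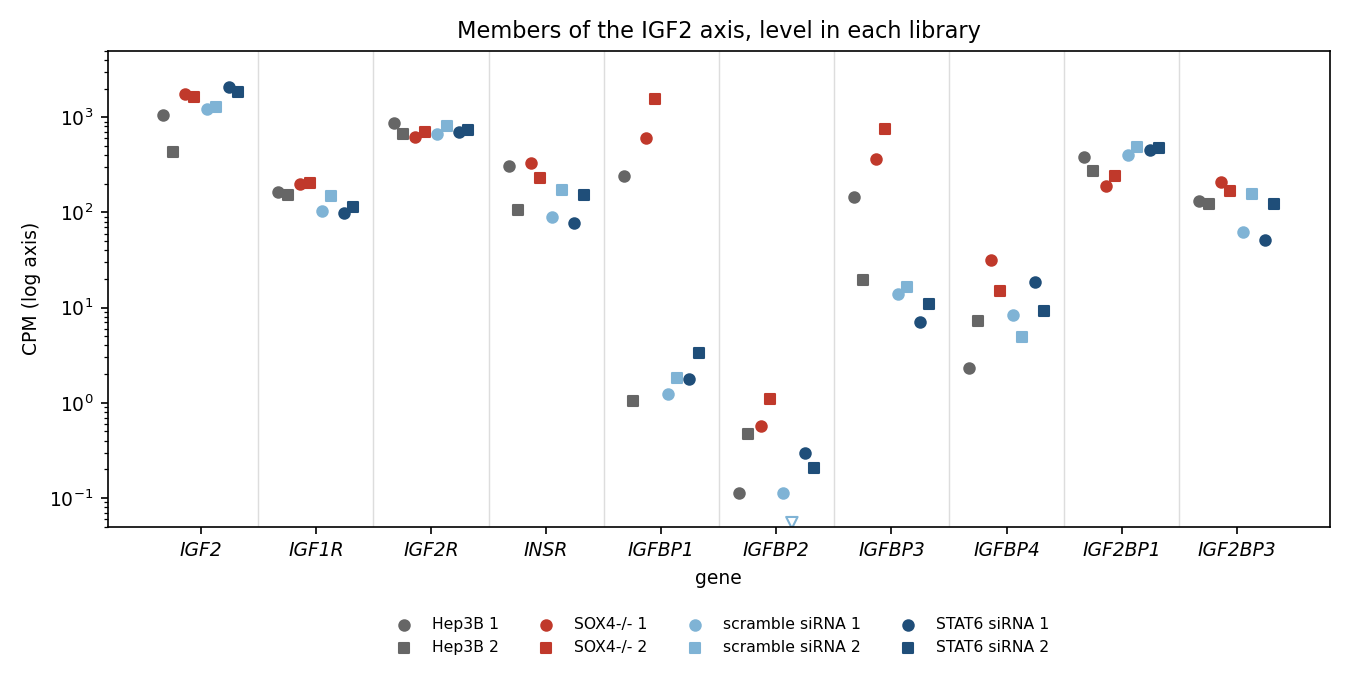
TMM-normalized CPM on a log axis for the 10 members in each of the 8 libraries, with circles for library 1 and squares for library 2 of a condition, and an open triangle at the base for the library with 0 counts of IGFBP2. IGFBP1 spans from 1.05 to 1552 CPM, with 241 CPM in Hep3B library 1 and 1.05 CPM in Hep3B library 2, whereas IGF2R stays between 626 and 872 CPM.

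With STAT6 siRNA, 9 members were tested, since IGFBP2 was below the count filter, and 0 passed the adjusted threshold, as did 0.0% of the 13554 genes tested. Members with an unadjusted p-value below 0.05 were also 0, against 14 genes, or 0.103%, of the table, and the DESeq2 Wald test called 0 members and 0 genes. STAT6, the siRNA target, was itself not called, with a log2 fold change of -2.22 (SE 0.72, edgeR unadjusted p = 0.00834). A member that was not called is therefore not shown to be unchanged. In alternative fits that kept every library, the log2 fold change of STAT6 lay from -2.38 to -2.10. STAT6 passed in at least 1 of them, with a lowest edgeR adjusted p of 2.28e-45. Both STAT6 siRNA libraries lay above both scramble libraries for 2 tested members, IGF2 and IGFBP4, against 2.74% of all genes. They lay below for 1, IGFBP3, against 5.26% of all genes. The siRNA libraries of the same number deviated together, with a correlation of 0.87 between the library 1 minus library 2 differences of the groups. The fits given here leave the library number out, so that shared spread stays in their standard errors. In a fit of all 8 libraries, the effects of the perturbations differed for 0 members at an adjusted p-value below 0.05, against 0.0683% of the 14632 genes tested, and for 1 member, IGFBP3, at an unadjusted p-value below 0.05, against 6.31% of all genes.

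IGF2, the ligand gene, lies on chromosome 11 of hg38 from 2129112 to 2149604. It had 1058 and 435 CPM in the Hep3B libraries and 1776 and 1617 CPM in the SOX4-/- libraries. The 2 groups did not overlap, but Hep3B library 1 stood 2.43-fold above Hep3B library 2, while the SOX4-/- libraries lay within 1.10-fold of each other. The fitted level was 2.27-fold higher in the SOX4-/- libraries, a log2 fold change of 1.18 (standard error, SE, 0.55, edgeR adjusted p = 0.216). The log2 fold change was 1.90 (edgeR adjusted p = 0.0507) without Hep3B library 1 and 0.68 (edgeR adjusted p = 0.474) without Hep3B library 2, so its size rested on which control was kept. With scramble siRNA IGF2 had 1223 and 1277 CPM, and with STAT6 siRNA 2098 and 1847 CPM. The STAT6 siRNA libraries were both higher, with a log2 fold change of 0.66 (SE 0.55, edgeR adjusted p = 1.00). The difference between the 2 effects was 0.42 on the log2 scale (SE 0.73, edgeR adjusted p = 1.00), so a difference was not shown. IGF2 therefore sat above its own controls in both comparisons without passing the test in either.

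The readthrough transcript INS-IGF2, which joins the insulin gene to IGF2, was counted apart and was close to absent. It had 20 and 6 counts in Hep3B, 30 and 20 in the SOX4-/- libraries, 16 and 12 with scramble siRNA and 12 and 21 with STAT6 siRNA. The groups overlapped in both comparisons, with log2 fold changes of 0.63 (SE 0.80, edgeR adjusted p = 0.659) and 0.29 (SE 0.81, edgeR adjusted p = 1.00). INS itself was not listed in either table. IGF1, the other ligand of the family and named after its values were seen, had at most 2.38 CPM in any library. IGF2-AS, named in the same way, runs opposite to part of IGF2 and had at most 9.99 CPM, and whether the counting used strand is not given in the sources used here.

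IGF2 was quantified as 5 RefSeq transcripts from 4 start sites on the minus strand. The fetal-type promoters are known to lie nearest the coding exons and the adult liver promoter farthest upstream. The start nearest the coding exons, at 2137289, belongs to NM_001291861 and carried 41.6% and 41.9% of IGF2 counts in Hep3B, 34.3% and 36.6% in the SOX4-/- libraries, 31.8% and 26.7% with scramble siRNA and 24.3% and 27.6% with STAT6 siRNA. The start 1686 bases upstream, at 2138975, belongs to NM_000612 and carried the largest share, 50.1% and 49.6% in Hep3B, 59.1% and 56.7% in the SOX4-/- libraries, 61.7% and 67.7% with scramble siRNA and 71.2% and 67.2% with STAT6 siRNA. The start 3836 bases upstream, shared by NM_001127598 and NM_001291862, carried 8.17% and 8.40% in Hep3B and between 4.48% and 6.69% in all other libraries. The farthest start, 12315 bases upstream and used by NM_001007139, carried from 0.0361% to 0.0937% over the 8 libraries.

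The 2 Hep3B libraries, which differed 2.43-fold in total IGF2, therefore had nearly the same mix of starts. The NM_000612 share was higher in the SOX4-/- libraries than in Hep3B. It was higher still in the scramble siRNA libraries of the other table, at 61.7% and 67.7%, so a high share is not particular to the SOX4-/- libraries. With 2 libraries a group no exact permutation test of these shares could pass 0.05, and the values stand as a description. The transcripts share most of their bases, so their separate counts are estimates. Of the 5 transcripts, 0 passed an adjusted p-value below 0.05 in the SOX4-/- comparison, against 0.711% of the 27995 transcripts tested, and 1, NM_000612, had an unadjusted p-value below 0.05, against 18.8% of all transcripts. NM_000612 had 528 and 218 CPM in Hep3B and 1044 and 919 CPM in the SOX4-/- libraries, a log2 fold change of 1.40 (SE 0.51, edgeR adjusted p = 0.206). Without Hep3B library 1, which was the higher of the 2, the count of IGF2 transcripts called was 3, NM_000612, NM_001291861 and NM_001291862, against 7.42% of all transcripts in that fit. With STAT6 siRNA 0 of 5 passed, as did 0.0% of the 25652 transcripts tested, and 0 had an unadjusted p-value below 0.05, against 0.589% of all.

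**Figure D2:**
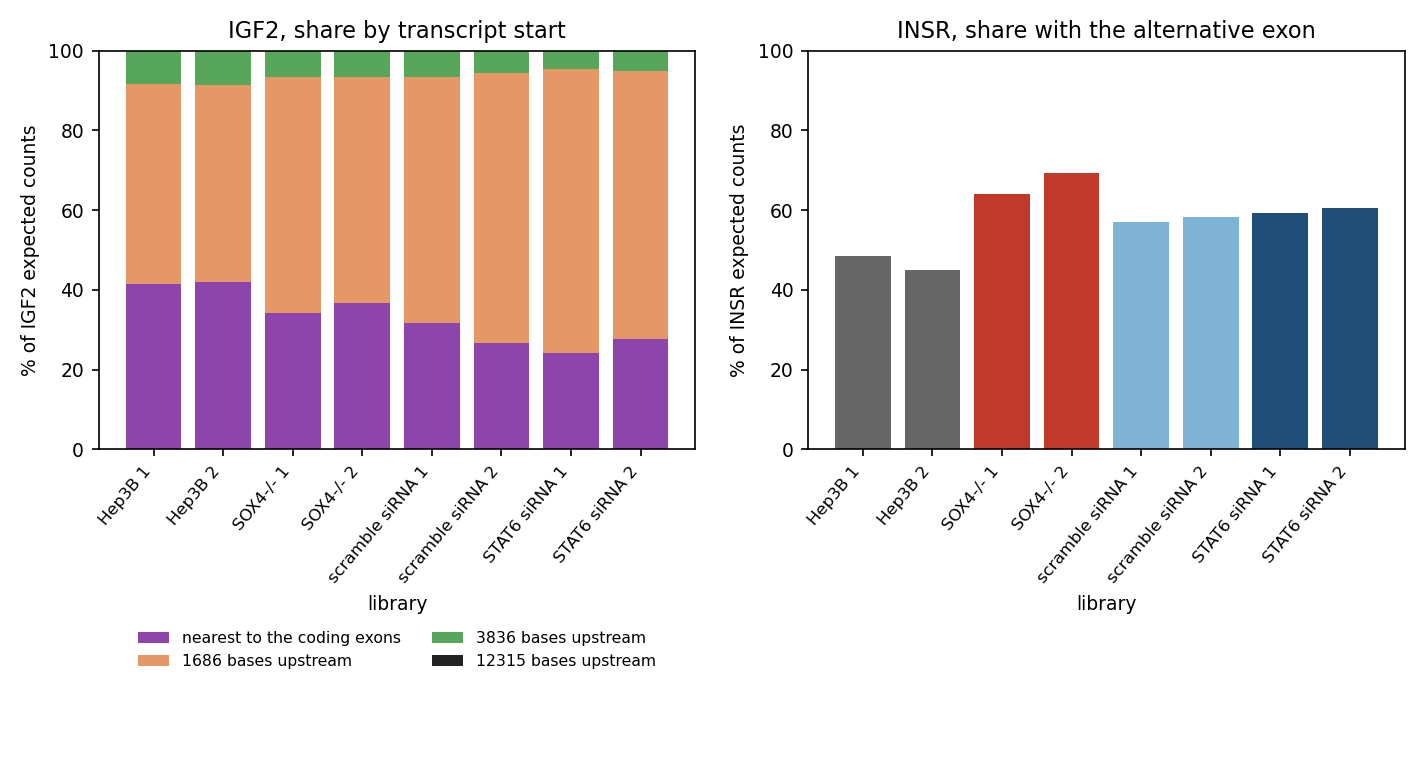
Left, share of IGF2 expected counts by transcript start in each library, with the distance of each start upstream of the nearest one, and right, share of INSR expected counts on the transcript with the alternative exon. The start 1686 bases upstream holds from 49.6% to 71.2% of IGF2, and the INSR share is lowest in Hep3B, at 48.6% and 44.9%, and highest in the SOX4-/- libraries, at 64.0% and 69.3%.

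Among the receptors, IGF1R, which encodes the main signalling receptor for IGFs, lies on chromosome 15 from 98648539 to 98964531. Hep3B held 164 and 153 CPM and the SOX4-/- libraries 199 and 203 CPM. The groups did not overlap, but the difference was small, with a log2 fold change of 0.34 (SE 0.33, edgeR adjusted p = 0.549). With scramble siRNA it had 104 and 150 CPM and with STAT6 siRNA 99.2 and 115 CPM, which overlapped, with a log2 fold change of -0.25 (SE 0.57, edgeR adjusted p = 1.00).

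IGF2R, which encodes the receptor that clears IGF2, lies on chromosome 6 from 159969099 to 160111503. Its level was 872 and 672 CPM in Hep3B and 626 and 696 CPM in the SOX4-/- libraries, and 661 and 819 CPM with scramble siRNA against 704 and 735 CPM with STAT6 siRNA. The groups overlapped in both comparisons, with log2 fold changes of -0.22 (SE 0.41, edgeR adjusted p = 0.769) and -0.04 (SE 0.55, edgeR adjusted p = 1.00). It was the steadiest member across the 8 libraries in CPM.

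INSR, which encodes the insulin receptor, lies on chromosome 19 from 7112255 to 7294303. Its level was 308 and 107 CPM in Hep3B and 329 and 232 CPM in the SOX4-/- libraries, so Hep3B library 1 lay among the SOX4-/- libraries. The log2 fold change was 0.43 (SE 0.53, edgeR adjusted p = 0.643), and it was -0.14 without Hep3B library 2. With scramble siRNA INSR had 90.1 and 174 CPM and with STAT6 siRNA 78.2 and 151 CPM, a log2 fold change of -0.20 (SE 0.61, edgeR adjusted p = 1.00).

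The alternative exon printed above separates the 2 INSR transcripts. NM_000208, which holds the exon, carried 48.6% and 44.9% of INSR counts in Hep3B and 64.0% and 69.3% in the SOX4-/- libraries. It carried 57.0% and 58.3% with scramble siRNA and 59.3% and 60.5% with STAT6 siRNA. The SOX4-/- shares lay above both Hep3B shares, and the STAT6 siRNA shares lay above both scramble shares by a smaller margin. These shares were given no test, for the reason stated for IGF2. In levels, NM_000208 had 149 and 48.7 CPM in Hep3B and 209 and 161 CPM in the SOX4-/- libraries, with a log2 fold change of 0.91 (SE 0.54, edgeR adjusted p = 0.409 over all transcripts). NM_001079817, which lacks the exon, had 158 and 59.6 CPM in Hep3B and 118 and 71.4 CPM in the SOX4-/- libraries, with a log2 fold change of -0.20 (SE 0.53, edgeR adjusted p = 0.879).

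The binding protein genes held the widest range of the members. IGFBP1, a binding protein made by hepatocytes and known as a target repressed by insulin, lies on chromosome 7 from 45888360 to 45893669. It had 241 CPM (4240 counts) in Hep3B library 1 and 1.05 CPM (20 counts) in Hep3B library 2, and 606 and 1552 CPM in the SOX4-/- libraries. The Hep3B libraries differed 228-fold in CPM, rank 5 of 14415 absolute log2 differences between these libraries, at 7.71 against a median of 0.52. Both SOX4-/- libraries were higher than either, but the fitted log2 fold change of 3.16 had a standard error of 1.67 (edgeR adjusted p = 0.273). It was 9.93 (edgeR adjusted p = 5.33e-04) without Hep3B library 1 and 2.16 at its lowest when another library was left out. With scramble siRNA IGFBP1 had 1.24 and 1.82 CPM and with STAT6 siRNA 1.76 and 3.30 CPM, levels near that of Hep3B library 2, with a log2 fold change of 0.73 (SE 0.77, edgeR adjusted p = 1.00).

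IGFBP3, the main IGF carrier of serum, lies 18575 bases beyond IGFBP1 on chromosome 7, from 45912245 to 45921273, and the 2 genes point toward each other. IGFBP3 had 145 and 19.5 CPM in Hep3B and 368 and 750 CPM in the SOX4-/- libraries. The order of the 4 libraries was the same as that of IGFBP1, with a 7.44-fold gap between the Hep3B libraries. The fitted level was 6.79-fold higher in the SOX4-/- libraries, a log2 fold change of 2.76 (SE 0.87, edgeR unadjusted p = 0.0135, adjusted p = 0.0993). It was 4.78 (edgeR adjusted p = 0.00204) without Hep3B library 1, 1.94 (edgeR adjusted p = 0.0525) without Hep3B library 2 and 2.15 (edgeR adjusted p = 0.373) without SOX4-/- library 2. With scramble siRNA IGFBP3 had 14.0 and 16.5 CPM and with STAT6 siRNA 7.05 and 10.8 CPM. There it was lower in both treated libraries, with a log2 fold change of -0.77 (SE 0.73, edgeR adjusted p = 1.00). The siRNA result for IGFBP3 passed when the library number as a block and offsets for GC content and length entered the fit together. The labels do not state such a pairing. IGFBP3 was the member with the largest fitted difference between the 2 effects, 3.45 on the log2 scale (SE 1.04, edgeR unadjusted p = 0.00506, adjusted p = 0.329). That difference passed in 1 of the fits with a library left out, at 3.57 (edgeR adjusted p = 0.0317) without scramble siRNA library 1, and the IGFBP1 difference passed at 9.16 (edgeR adjusted p = 0.0327) without Hep3B library 1.

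IGFBP4, a binding protein that inhibits IGF action until the protease PAPPA cleaves it, lies on chromosome 17 from 40443424 to 40457731. Its level was 2.33 and 7.23 CPM in Hep3B (41 and 137 counts) and 31.7 and 15 CPM in the SOX4-/- libraries (836 and 272 counts). The groups did not overlap, and the log2 fold change was 2.28 (SE 0.65, edgeR unadjusted p = 0.00826, adjusted p = 0.0802). Without Hep3B library 2, the higher control, it was 3.32 (edgeR adjusted p = 0.00818), without Hep3B library 1 it was 1.63 (edgeR adjusted p = 0.0726), and without SOX4-/- library 1 it was 1.66 (edgeR adjusted p = 0.383). With scramble siRNA IGFBP4 had 8.42 and 4.89 CPM and with STAT6 siRNA 18.6 and 9.16 CPM. It was higher in both treated libraries here too, with a log2 fold change of 1.06 (SE 0.77, edgeR adjusted p = 1.00), and the difference between the effects was 1.08 (SE 0.97, edgeR adjusted p = 1.00). The siRNA result for IGFBP4 passed when the library number entered the fit as a block, a pairing that the labels do not state. Of the members with a promoter window, IGFBP4 is the one whose window holds TTCNNNNGAA, as 5.38% of all windows did. A link between that match and the siRNA result was not tested.

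IGFBP2, which is among the abundant binding proteins of fetal serum, lies on chromosome 2 from 216633404 to 216664436 and was near the detection limit. It had 2 and 9 counts in Hep3B, 15 and 20 counts in the SOX4-/- libraries, 2 and 0 counts with scramble siRNA and 4 and 5 counts with STAT6 siRNA. In the SOX4-/- comparison its log2 fold change was 1.46 (SE 0.90, edgeR adjusted p = 0.347). It met the count filter there through the SOX4-/- libraries alone, which favours a value above 0. A count of 0 allows up to 3 counts, so no difference was detectable at this depth with siRNA, and no fold is given there.

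**Figure D3:**
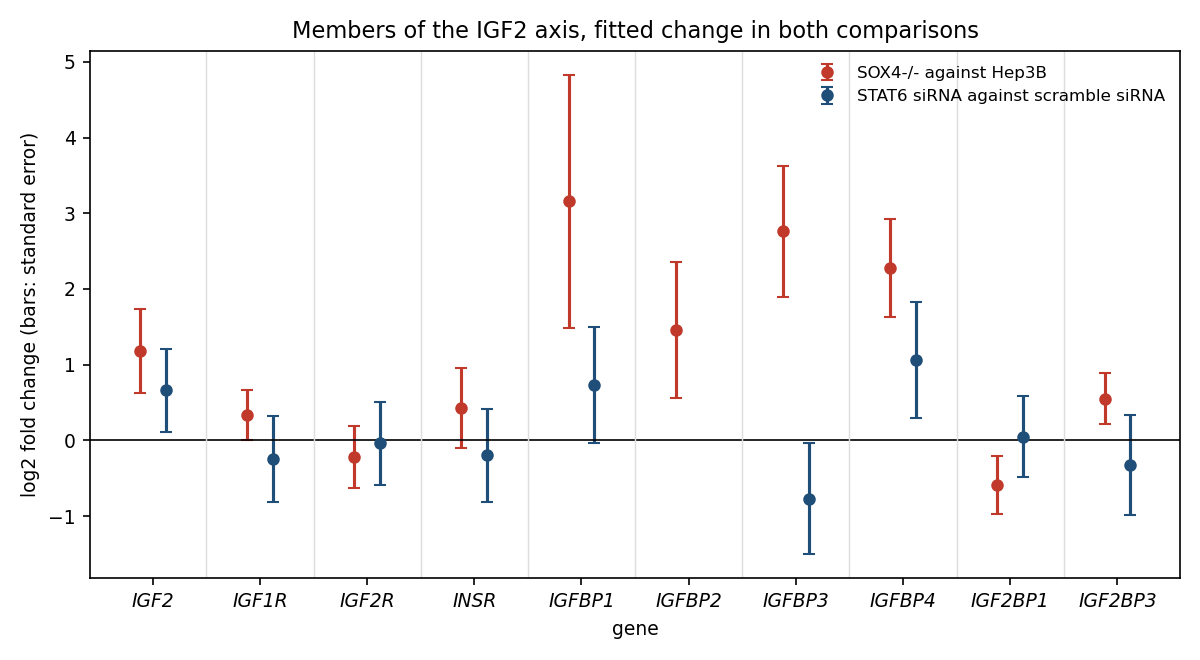
Fitted log2 fold change of each member with its standard error, for the SOX4-/- libraries against Hep3B and for STAT6 siRNA against scramble siRNA, 2 libraries a group. The 4 binding protein genes have the highest fitted values in the SOX4-/- comparison, from 1.46 to 3.16, and IGFBP2 was not tested with siRNA. IGFBP2, at 1.46, met the count filter through its SOX4-/- libraries alone.

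IGF2BP1, which encodes an oncofetal protein that stabilizes bound mRNAs, lies on chromosome 17 from 48997412 to 49056146. Its level was 378 and 271 CPM in Hep3B and 190 and 241 CPM in the SOX4-/- libraries, the member whose SOX4-/- libraries were both lower. The log2 fold change was -0.59 (SE 0.38, edgeR adjusted p = 0.362). With scramble siRNA it had 402 and 486 CPM and with STAT6 siRNA 449 and 472 CPM, with a log2 fold change of 0.05 (SE 0.54, edgeR adjusted p = 1.00). IGF2BP3, which encodes a related protein of the family, lies on chromosome 7 from 23310209 to 23470377. Its level was 131 and 123 CPM in Hep3B and 207 and 166 CPM in the SOX4-/- libraries, both higher, with a log2 fold change of 0.55 (SE 0.34, edgeR adjusted p = 0.342). With scramble siRNA it had 62.5 and 158 CPM and with STAT6 siRNA 51.4 and 124 CPM, a log2 fold change of -0.33 (SE 0.66, edgeR adjusted p = 1.00), and the gap between library numbers there was larger than that between conditions. The 2 genes thus had fitted changes of opposite sign in the SOX4-/- comparison, and neither passed.

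Per length, as length-scaled transcript levels (TPM) from the longest matched transcript, IGF2 had the highest mean level of the 10 members in 3 of the 4 conditions. Its mean level was 350 TPM in Hep3B, 552 TPM with scramble siRNA and 781 TPM with STAT6 siRNA, and with siRNA it lay above the next member, IGF2BP1, at 134 and 125 TPM, with no overlap. In the SOX4-/- libraries IGFBP1 came first at 1686 TPM (1030 and 2343 TPM in the single libraries), above IGF2 at 808 TPM with no overlap, and IGFBP3 followed at 642 TPM with a range that overlapped that of IGF2. In Hep3B the ranges of IGF2, IGFBP1 and IGF2R overlapped from one to the next, since IGFBP1 had 370 TPM in library 1 and 1.79 TPM in library 2. IGF2R, IGF2BP1, IGF2BP3, INSR and IGF1R lay between 19.9 and 146 TPM in mean level in every condition, and most neighbours among them overlapped. IGFBP4 stayed at or below 28.7 TPM in mean level and IGFBP2 at or below 1.51 TPM. From Hep3B to the SOX4-/- libraries IGFBP1 went from rank 2 to rank 1, IGFBP3 from 5 to 3 and IGF2BP1 from 4 to 7, and the others moved by at most 1 rank. From scramble to STAT6 siRNA only IGFBP3 and IGFBP4 changed places, at ranks 7 and 8.

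The rest of the pathway was read from a list of 67 genes that holds the 10 members. In the SOX4-/- comparison 58 were tested and 2 passed, 1 higher, against 4.5% of all genes, and 1 lower, against 1.39%. The 48 tested genes that are not members had a median log2 fold change of -0.13, against 0.01 over all genes. The gene that rose was IGFBP7, which encodes a secreted protein that binds IGFs weakly and insulin. Its level was 17.7 and 20.7 CPM in Hep3B and 175 and 221 CPM in the SOX4-/- libraries, with little spread within either group, a log2 fold change of 3.37 (SE 0.37, edgeR adjusted p = 0.0104). With scramble siRNA it had 66.1 and 51.9 CPM and with STAT6 siRNA 77.7 and 62.2 CPM, a log2 fold change of 0.25 (edgeR adjusted p = 1.00). The gene that fell was STC2, which encodes stanniocalcin-2, an inhibitor of the protease that cleaves IGFBP4. Its level was 874 and 364 CPM in Hep3B and 57.9 and 83.4 CPM in the SOX4-/- libraries, a log2 fold change of -3.13 (SE 0.54, edgeR adjusted p = 0.0254). With scramble siRNA it had 123 and 232 CPM and with STAT6 siRNA 98.0 and 206 CPM, a log2 fold change of -0.22 (edgeR adjusted p = 1.00). The count of 2 moved with the count over all genes when a library was left out. It was 10 of 59 without Hep3B library 1, against 15.3% of all genes, and 5 of 58 without Hep3B library 2, against 8.89%. It was 1 of 59 without SOX4-/- library 1, against 0.493%, and 0 of 59 without SOX4-/- library 2, against 0.14%. IGFBP7 then had a log2 fold change of 3.16 (adjusted p = 0.07) without SOX4-/- library 2, and STC2 had -2.88 (adjusted p = 0.182) and -3.44 (adjusted p = 0.148) without SOX4-/- libraries 1 and 2, all from edgeR's fit. The DESeq2 Wald test called 11 of the 58, against 15% of all genes.

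**Figure D4:**
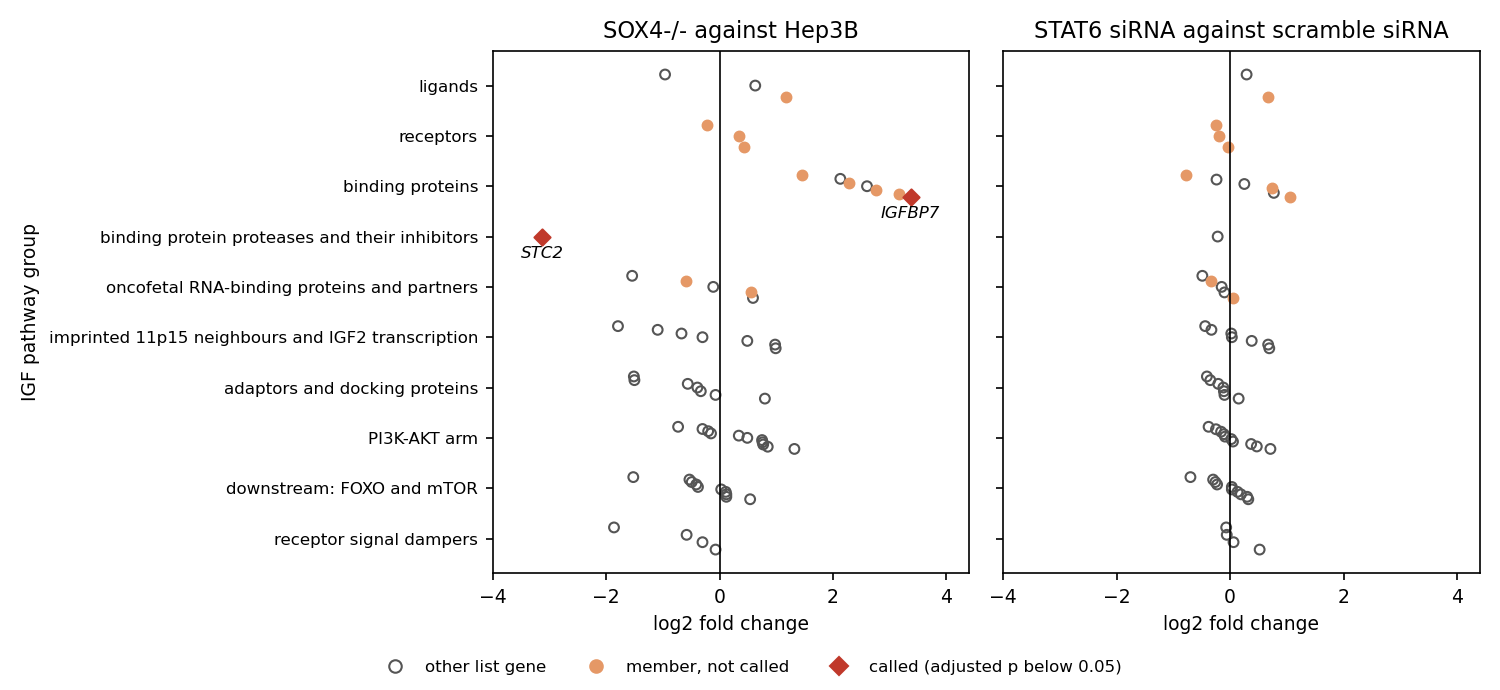
Fitted log2 fold change of the tested genes of the 67-gene list by group in both comparisons, with members filled and genes past an adjusted p-value of 0.05 as diamonds. In the SOX4-/- comparison all 7 tested binding protein genes lie above 0, of which IGFBP2 met the count filter through its SOX4-/- libraries alone. IGFBP7 and STC2 are the genes that passed there, and with STAT6 siRNA 0 passed.

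By group, the 7 tested binding protein genes all had a log2 fold change above 0 in the SOX4-/- comparison, with a median of 2.60, and their SOX4-/- libraries all lay above both Hep3B libraries, where 30.6% of all genes did. One of the 7, IGFBP2, met the count filter through its SOX4-/- libraries alone, so its direction adds nothing to that count. IGFBP7 was the 1 that passed, and 5 of the 7 had an unadjusted p-value below 0.05, against 26.0% of all genes. The group holds the 4 members, IGFBP7, IGFBP6 and IGFALS. IGFBP6 had 0.681 and 1.05 CPM in Hep3B and 3.22 and 4.45 CPM in the SOX4-/- libraries. IGFALS, which encodes the acid-labile subunit of the serum IGF complex, had 0.738 and 0.633 CPM against 4.51 and 3.85 CPM. IGFALS and IGFBP6 were named after their values were seen, and their adjusted p-values were 0.0539 and 0.0920 from edgeR. With STAT6 siRNA 6 binding protein genes were tested, 4 above 0 and 2 below, with a median of 0.49.

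The other groups had smaller medians, from -0.44 for the 4 receptor signal dampers to 0.63 for the 3 tested ligands, apart from STC2, which was the 1 tested gene of the proteases and their inhibitors. PAPPA and PAPPA2, the proteases of that group, were below the count filter. Of the 7 adaptors and docking proteins, 6 had a value below 0, with a median of -0.39, and 0 passed. SHC1, GRB10, TRIB3, EIF4EBP1 and LIN28B, named after their values were seen, had log2 fold changes from -1.86 to -1.5 with adjusted p-values from 0.06 to 0.0783 from edgeR, and did not pass. Of the 11 genes of the PI3K-AKT arm 7 were above 0, with a median of 0.49, and 0 passed. With STAT6 siRNA 55 genes of the list were tested, 0 passed, 0 had an unadjusted p-value below 0.05, and the median was -0.06, against -0.03 over all genes tested.

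H19, the maternally expressed neighbour of IGF2 on 11p15, was also named after its values were seen and had 3856 and 990 CPM in Hep3B and 3717 and 3097 CPM in the SOX4-/- libraries. Hep3B library 2 was the lowest library for both H19 and IGF2. With scramble siRNA H19 had 6881 and 3751 CPM and with STAT6 siRNA 11428 and 5456 CPM, and the groups overlapped in both comparisons. Across the 8 libraries the Pearson correlation of log2 CPM with IGF2 was 0.870 for H19. The 5 genes most like IGF2 among 10993 genes averaging 100 counts or more per library were LYPD1 (0.972), SEMA7A (0.954), CELSR2 (0.942), PPL (0.941) and KLC3 (0.940). These values describe 8 libraries that share 4 conditions and 2 tables. The log2 CPM used here were not corrected for GC content, with which the siRNA libraries of a group differed. GC content was 60.4% for IGF2 and from 56.3% to 66.1% for the 5 genes, and its part in the likeness was not tested. Of the 5, 0 were called in the SOX4-/- comparison, with adjusted p-values from 0.0719 to 0.241 from edgeR. Since they were chosen for likeness over the same libraries, their order between conditions is no separate result. Of the members above that mean, IGFBP4 was most like IGF2, at 0.507, and IGF1R least, at -0.214, while IGFBP3 was at -0.055.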

How the data were processed

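RNA of 8 Hep3B libraries, 2 in each of 4 conditions, was sequenced with a stranded mRNA kit. Deposited values are expected counts, which estimate the reads of each RefSeq transcript, in a table for each comparison, not normalized and with at least 10 counts per transcript over 4 libraries. The submitters' processing notes name Partek, STAR and hg38, and versions are not given in the sources used here. Groups came from the labels, and 0 columns were left without a library. Expected counts were added up within each gene and rounded, 19 gene names turned into dates were kept apart by chromosome, and each table was fitted alone with edgeR 4.0.16 under R 4.3.3 (filterByExpr, TMM, glmQLFit, glmQLFTest), with Benjamini-Hochberg adjustment over all genes or transcripts tested. The design had assumed this test for expected counts. CPM is TMM-normalized within a table, so CPM of different tables are set side by side without a common scaling, and log2 values of single libraries had 2 as prior count. All 8 libraries entered the fit whose contrast compared the effects. TPM used the longest GENCODE transcript, matched for 15908 of 16169 genes.

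The steps were tested on simulated counts. In the SOX4-/- setting, among 14201 genes, 40 of 50 genes with a log2 change of -3 and 46 of 50 raised by 3 were recovered. At 1.5, 12 of 50 lowered and 7 of 50 raised were recovered, and 7 unchanged genes were called. In the siRNA setting, among 13332 genes, 21 of 50 lowered and 30 of 50 raised by 3 were recovered. At 1.5, 0 of 50 lowered and 1 of 50 raised were recovered, and 1 unchanged gene was called. For the difference between the effects, among 14399 genes, 11 of 50 lowered and 18 of 50 raised by 3 were recovered. At 1.5 it was 0 of 50 in either direction, so a difference of that size would be missed. Libraries of a group differed beyond sampling noise and were counted singly.

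Named genes were the members, INS-IGF2, SOX4, STAT6, the pathway list genes past the threshold and the 5 genes with the highest Pearson correlation with IGF2. Members, lists and tests were chosen with earlier results of these data known. Alternatives were other scalings, DESeq2 1.42.0, other filters, robust fits, a joint fit, offsets for GC content and length (mgcv 1.9.3), the library number as a block and leaving out each library. Promoter sequence is from RefSeq (GRCh38.p14) and the INSR exon from GENCODE transcripts.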

Additional observations from a re-analysis of the deposited data

How the results depend on the processing

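The count of members called in the SOX4-/- comparison was 0 in the main fit, was 0 to 2 with single libraries removed, and was 2, IGFBP3 and IGFBP4, with the DESeq2 Wald test. The count of pathway list genes called, 2, was 0 to 10 with single libraries removed, 11 with DESeq2 and 1, IGFBP7, with offsets for GC content and length and the replicate block together. With single libraries removed, the count of members whose effects differed, 0, was 0 to 1, and the count of IGF2 transcripts called in the SOX4-/- comparison, 0, was 0 to 3. Over all genes the SOX4-/- comparison called 849, against 2160 with DESeq2, 518 with at least 10 counts in every library, 483 with offsets for GC content and length, and 21 to 2298 with single libraries removed. The difference between the effects called 10 genes, against 146 with DESeq2, 1 with at least 10 counts in every library, 61 with offsets, and 1 to 119 with single libraries removed. In each case the cause was not tested, except that leaving out a library leaves 1 library in a group, which is then assumed to vary like the others.

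Library numbers are shared between groups, but the labels do not say that a number marks a batch. The correlation of the library 1 minus library 2 differences was -0.08 between Hep3B and SOX4-/- and 0.87 between scramble and STAT6 siRNA, over 14415 and 13554 genes. With the replicate block, the siRNA comparison called 62 genes, 1 of them a member and a gene of the list, IGFBP4 (log2 fold change 1.03, adjusted p = 0.00542 from edgeR), and with the block and offsets for GC content and length it called 338 genes, 2 of them members, IGFBP3 (-0.84, adjusted p = 5.64e-04) and IGFBP4 (0.75, adjusted p = 0.00661), and 4 of them list genes, IRS1 and PIK3R2 besides. In the SOX4-/- comparison the replicate block called 982 genes and 0 members, and with the offsets 50 genes and 0 members, where STC2 (-3.02, adjusted p = 0.0806) was no longer called. For the difference between the effects, the replicate block called 102 genes and 0 members. The ratio of library 2 to library 1 varied with GC content, and across genes the Spearman correlation was -0.76 in the scramble and -0.82 in the STAT6 siRNA libraries, -0.08 in Hep3B and 0.29 in SOX4-/-.

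Under another scaling, tool or joint fit, the 1 named gene whose sign changed was IGF2R. With STAT6 siRNA its log2 fold change of -0.04 was 0.05 with median-of-ratios factors and with DESeq2 and 0.01 in the joint fit. With single libraries removed, values with a changed sign lay from -0.14 to 1.33 for INSR and from -1.42 to 0.11 for SOX4 in the SOX4-/- comparison. With STAT6 siRNA they lay from -0.43 to 0.04 for IGF1R, from -0.13 to 0.13 for IGF2R, from -0.76 to 0.35 for INSR, from -0.02 to 0.20 for IGF2BP1, from -1.11 to 0.49 for IGF2BP3, from -0.86 to 0.31 for STC2, from -1.61 to 0.50 for SOX4 and from -0.06 to 0.43 for NM_001127598. For the difference between the effects they lay from -0.07 to 1.18 for IGF2, from -0.02 to 1.47 for INSR, from -4.13 to 0.58 for IGFBP2, from -0.03 to 1.5 for IGF2BP3 and from -1.40 to 0.64 for SOX4. IGF2, IGF1R, IGFBP1, IGFBP3, IGFBP4 and IGF2BP3 kept a log2 fold change above 0 in the SOX4-/- comparison under every alternative run. IGFBP2 was not fitted where at least 10 counts in every library were required, and was above 0 in the other fits. It met the main count filter through its SOX4-/- libraries alone, so its sign is no separate result.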
